A study of Mus musculus with 2 samples.

Results

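Serpin genes were described in polyadenylated RNA of mouse small intestine. RNA above 200 nt was selected and depleted of ribosomal RNA. The tissue came from C57BL/6J animals, a widely used inbred strain, which were adult and 8 weeks old. The members are the protein-coding genes of the deposited gene tables whose symbol is Serpin followed by a clade letter from a to i and a number, which gave 61 of 21474 protein-coding genes and of 69691 features. The labels give 1 group of 2 biological replicates, from littermates of both sexes pooled, with no treatment, no altered allele and no intestinal segment named. Libraries kept the strand, were sequenced as paired reads of 76 nt, and held 45472946 expected counts in replicate 1 and 45822403 in replicate 2. Since there is no second group nothing could be tested between groups, and values are given per replicate or as mean ± SD over both. Where a pair of values stands for 1 gene or list, they are those of replicates 1 and 2. Levels are in TPM, a share of all transcripts in the library, which is scaled by length so that genes can be set side by side.

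Serpins are a family of proteins with a shared fold. Most act as suicide inhibitors of serine proteases, and some of cysteine proteases: an exposed reactive centre loop is cut by the target protease, which is then trapped. The clade letter follows descent. Clade a holds antitrypsin, the antichymotrypsin-like genes and hormone carriers of blood plasma; clade b serpins mostly stay inside the cell; other clades hold inhibitors of clotting, fibrinolysis and complement, and a few members, such as the collagen chaperone Serpinh1, inhibit no protease. Several clade a and clade b genes lie in tandem clusters that are larger in the mouse than in humans.

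The defining markers of the labelled tissue were present, with all 8 enterocyte, all 7 Paneth cell and all 7 goblet cell genes at 1 TPM or more in both replicates. The replicates stood apart in genes of neighbouring organs. Summed levels of the exocrine pancreas list were 272620 TPM in replicate 1 against 1792 TPM in replicate 2, with 15 of 15 genes higher in replicate 1, and those of the stomach list were 19753 and 51.5 TPM. Replicate ratios are log2((TPM + 1) of replicate 1 / (TPM + 1) of replicate 2). The median of all protein-coding genes with a mean of at least 1 TPM was -0.67, and -0.26 with TPM rescaled over the genes outside these lists, so ratios are given minus the median and called centred. Summed and uncentred, epithelial and plasma cell lists were higher in replicate 2, with 3027 and 12252 TPM for Paneth, 11905 and 24256 TPM for goblet, 6653 and 10178 TPM for enterocyte, 489 and 770 TPM for enteroendocrine and 8953 and 22080 TPM for plasma cells in replicates 1 and 2. After centring, the median gene of the list lay at -1.35 for Paneth, -1.03 for enterocyte and -0.37 for goblet cells. It lay at -0.18 for enteroendocrine and -0.13 for plasma cells, close to the median of all genes. The plasma cell median was taken over 5 of the 6 listed genes. It leaves out Igha, which made up most of the plasma cell sums (8008.5 and 20453.2 TPM), and so does not describe that gene. Stromal and leukocyte lists lay closer by uncentred sums, with 119 and 122 TPM for fibroblasts, 1304 and 1158 TPM for smooth muscle, 195 and 203 TPM for macrophages, 32.4 and 38.2 TPM for T cells and 5.81 and 4.90 TPM for neutrophils, and their centred medians were positive, at 0.64, 0.88, 0.39, 0.44 and 0.72. The neutrophil median rests on only 2 of the 6 genes of its list. The other lists were at 41.6 and 92.6 TPM for endothelium, 15.7 and 23.4 TPM for enteric neurons, 6.97 and 11.2 TPM for mast cells and 130 and 285 TPM for adipocytes, nearly all of the last from Cidec. In bulk tissue, fewer cells of a type and less RNA per cell cannot be told apart.

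Few serpin genes were expressed at an appreciable level. A gene was counted as detected at 1 TPM or more in both replicates, and 11 of the 61 members (18.0%) were, against 49.3% of all protein-coding genes. No expected count fell on 26 members (42.6%) in either replicate, against 22% of all protein-coding genes. For those 26, 3 counts were taken as the most that a count of 0 allows. Depending on gene length, the ceiling then lay between 0.0171 and 0.0840 TPM for replicate 1, and between 0.0219 and 0.106 TPM for replicate 2. This ceiling covers counting error only. The deposited credibility intervals of these genes ended between 0.0170 TPM (Serpina12) and 0.503 TPM (Serpina6) for replicate 1. For replicate 2 the ends of the same genes were 0.0216 and 0.562 TPM. By those intervals the level could exceed the ceiling for some of the genes. Another 22 members had counts but stayed under 1 TPM in both replicates, and 2 passed 1 TPM in one replicate only, Serpini1 in replicate 1 and Serpina1b in replicate 2. The family summed to 216 TPM in replicate 1 against 409 TPM in replicate 2 (313 ± 137, SD, n = 2), which was 0.0216% and 0.0409% of all TPM. The 4 highest genes, Serpinb6a, Serping1, Serpinh1 and Serpinb1a, made up 80.7% of that sum in replicate 1 and 88.9% in replicate 2.

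**Figure D1:**
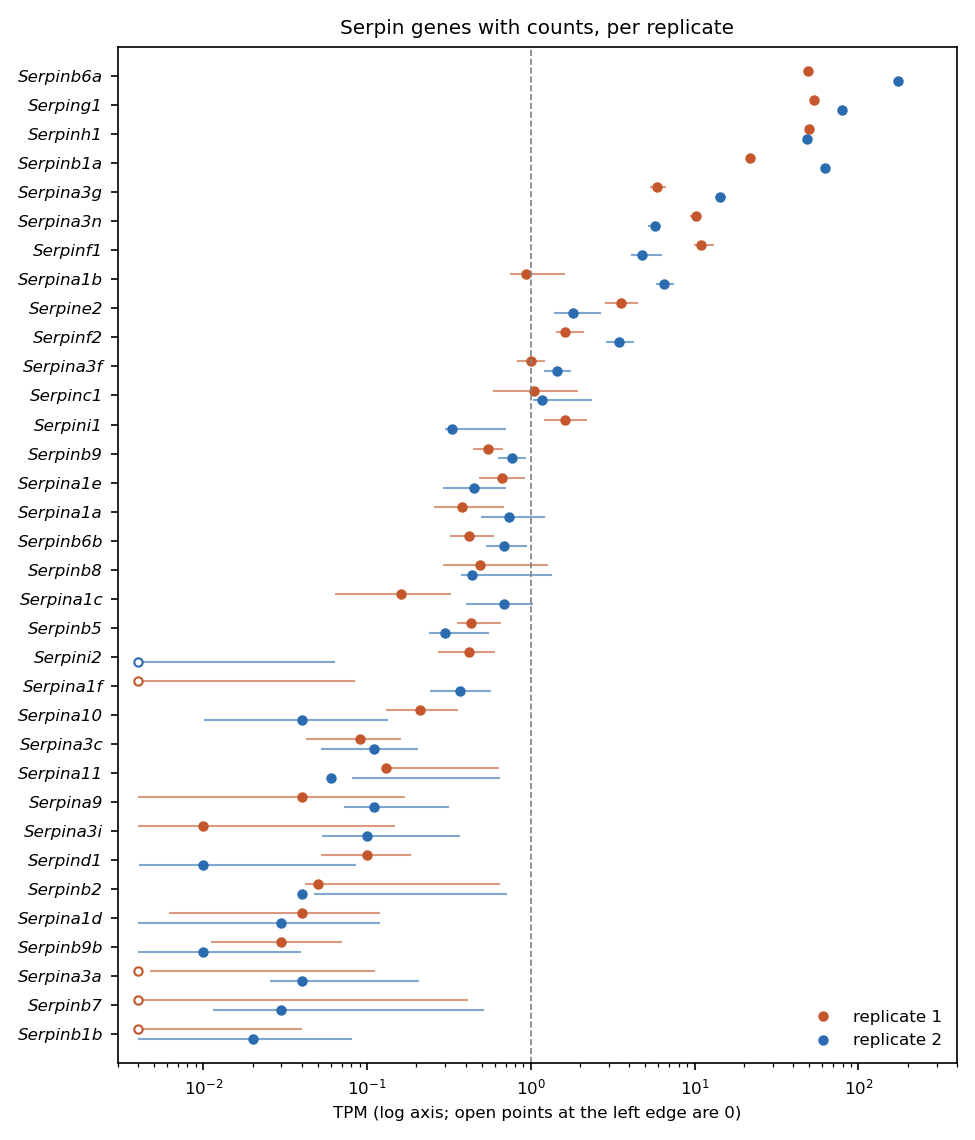
TPM on a log axis of 34 of the 35 serpin genes with counts, one row per gene in order of mean level, for replicate 1 (orange) and replicate 2 (blue). Horizontal lines are the deposited credibility intervals, which do not always hold the point, open points are 0 and the dashed line is 1 TPM; 4 genes stand well above the rest.

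By clade, the 26 genes of clade b held 72.8 TPM in replicate 1 and 238 in replicate 2, or 33.7% and 58.2% of the family, although 16 of them had no counts and only 2 were detected. The 24 genes of clade a held 19.7 and 30.7 TPM, with 3 detected and 9 without counts. Clades g and h have 1 gene each, Serping1 and Serpinh1, at 53.3 and 50.1 TPM in replicate 1 and 79.8 and 48.3 TPM in replicate 2. Clade f held 12.6 and 8.24 TPM, clade i 2.03 and 0.33 TPM, clade c 1.05 and 1.17 TPM and clade d 0.10 and 0.01 TPM in replicates 1 and 2.

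Most members lie in 3 chromosomal clusters, and in each the expressed genes were few. The chromosome 1 cluster of 11 clade b genes spans 749 kb and had no detected gene and 7 without counts; its sum was 0.97 TPM in replicate 1 against 0.81 TPM in replicate 2. The chromosome 13 cluster of 15 clade b genes spans 1161 kb, and its first and last genes, Serpinb1a and Serpinb6a, held nearly all of its 71.8 TPM in replicate 1 and 237 in replicate 2, while 9 of the 15 had no counts. The chromosome 12 cluster of 23 clade a genes spans 800 kb and had 3 detected genes, all of the Serpina3 group at its far end, and 8 without counts. Outside the clusters 6 of the 12 genes were detected, a share near the 49.3% of all protein-coding genes.

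**Figure D2:**
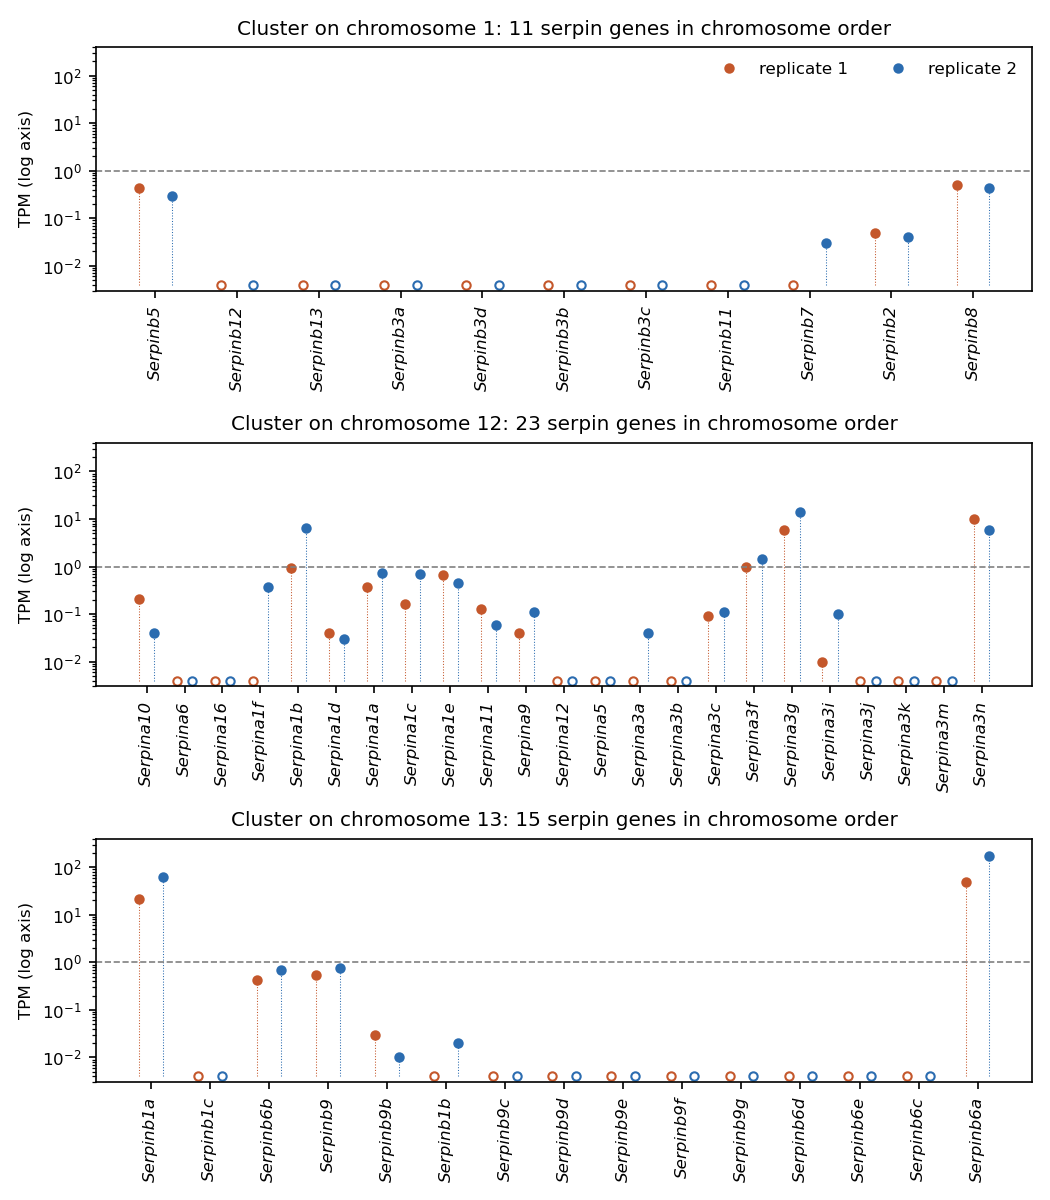
TPM on a log axis of the serpin genes of the 3 clusters, in chromosome order and not to scale, replicate 1 (orange) left of replicate 2 (blue) for each gene. Dotted lines only join a point to its gene, open points are 0 and the dashed line is 1 TPM; the chromosome 13 cluster carries its high levels at its 2 ends, and no gene of the chromosome 1 cluster reaches 1 TPM.

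Among the intracellular serpins, Serpinb6a, whose human counterpart inhibits trypsin-like proteases and cathepsin G, had the highest mean (ENSMUSG00000060147.11, chr13:33917918-34002794, minus strand, GRCm38). It had 49.0 TPM in replicate 1 against 174 TPM in replicate 2 (111 ± 88.2, SD, n = 2), ranking 1453 and 737 among protein-coding genes. The deposited credibility intervals, 46.3 to 51.6 TPM and 167 to 178 TPM, did not overlap, and replicate 2 was higher by 3.54-fold in TPM and by 3.43-fold in counts. The centred log2 ratio was -1.14.

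The tables list 17 transcripts of Serpinb6a, of which 9 start near a downstream site and 7 near an upstream site 66711 bases away. The remaining one starts elsewhere and was listed at 0. Those that start within 500 nt of the downstream site held 46.8 TPM (95.4%) in replicate 1 against 156 TPM (89.8%) in replicate 2. Those at the upstream site held 2.27 TPM (4.63%) and 17.8 TPM (10.2%). The start regions are shown because they differ in composition: the RefSeq window of 250 bases before the start holds 20 CG pairs at the upstream site, as many or more than which are found in 17.9% of 32851 promoter windows of that length, and 2 at the downstream site, as few as which are found in 29.0%. The median window has 6. Capitals mark CG pairs in the RefSeq (GRCm38.p6) bases, given 5′ to 3′ on the minus strand and cut to those ahead of every annotated exon, which leaves 135 bases with 1 pair at the downstream start (chr13:33936199-33936333) and 250 at the upstream start (chr13:34002795-34003044).
Serpinb6a downstream start: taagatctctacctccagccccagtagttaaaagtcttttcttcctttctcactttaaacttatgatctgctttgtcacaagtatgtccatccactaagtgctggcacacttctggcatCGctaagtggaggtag
Serpinb6a upstream start: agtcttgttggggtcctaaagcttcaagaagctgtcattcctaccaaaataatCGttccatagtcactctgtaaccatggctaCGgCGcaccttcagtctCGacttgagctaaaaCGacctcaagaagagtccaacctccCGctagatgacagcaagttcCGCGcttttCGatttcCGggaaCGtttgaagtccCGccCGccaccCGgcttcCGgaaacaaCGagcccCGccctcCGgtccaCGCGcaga

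No transcript of Serpinb6a dominated. Serpinb6a-201 held 26.8% of the gene's TPM in replicate 1 and 29.5% in replicate 2, Serpinb6a-202 held 25.9% and 15.4%, and Serpinb6a-206 was listed at 0 in replicate 1 and held 23.2% in replicate 2. The short Serpinb6a-204, of 722 nt and with part of the coding sequence, held 20.3% and 2.82%. Transcripts that carry at least 90% of the longest annotated coding sequence, called near full-length coding here, summed to 25.8 TPM (52.7%) in replicate 1 against 131 TPM (75.3%) in replicate 2. In expected counts, which are not scaled by length, they held 1695 of 2227 in replicate 1 and 6909 of 7633 in replicate 2. The 2 replicates thus differed in the listed makeup of the gene as well as in its level, and transcripts that share most of their exons are separated by few reads.

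Serpinb1a, an inhibitor of the neutrophil proteases elastase, cathepsin G and proteinase 3, had 21.8 TPM in replicate 1 against 62.1 TPM in replicate 2 (42.0 ± 28.5, SD, n = 2). Its intervals, 20.7 to 22.7 and 59.7 to 63.4 TPM, did not overlap, its counts were 1865 and 4159, and all of them fell on Serpinb1a-201. The neutrophil list summed to 5.81 TPM in replicate 1 against 4.90 TPM in replicate 2. Of the target genes Prtn3, for proteinase 3, had 1.29 and 1.72 TPM, and Elane and Ctsg, for elastase and cathepsin G and named after their values were seen, had 0.63 and 0 TPM and 0.21 and 0 TPM. The leukocyte serine protease list as a whole summed to 22.3 and 28.2 TPM, with 4 of 14 genes detected.

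Other clade b genes were low. Serpinb9, the inhibitor of granzyme B, had 0.55 TPM in replicate 1 and 0.77 in replicate 2, from 89 and 97 counts, beside 9.03 and 10.2 TPM of Gzmb, the granzyme B gene. Serpinb6b had 0.42 and 0.69 TPM, and Serpinb8, whose human counterpart inhibits furin, 0.49 and 0.44 TPM. Serpinb5, known as maspin and found in many epithelia, had 0.43 and 0.30 TPM with overlapping intervals, where the squamous epithelium list summed to 2.77 and 1.09 TPM with 0 of 9 genes detected. Serpinb2 had 0.05 and 0.04 TPM. The 4 genes Serpinb3a to Serpinb3d, counterparts of the human squamous cell carcinoma antigens, had no counts, nor did Serpinb11, Serpinb12 and Serpinb13, and Serpinb7 had 0 and 2. Of the mouse copies around Serpinb9 and Serpinb6, Serpinb9c to Serpinb9g and Serpinb6c to Serpinb6e had no counts, Serpinb9b had 5 and 1 and Serpinb1b 0 and 1, and Serpinb1c had none. Coding identities between copies were 87.8% to 90.6% (Serpinb1), 77.8% to 87.9% (Serpinb6) and 77.0% to 98.7% (Serpinb9).

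Serping1, the C1 inhibitor, which blocks the first proteases of complement and plasma kallikrein, had 53.3 TPM in replicate 1 against 79.8 TPM in replicate 2 (66.6 ± 18.7, SD, n = 2). Its intervals did not overlap, but its centred log2 ratio was 0.09, near the median gene, and of the opposite sign to its uncentred values. The protein-coding Serping1-201 held 79.2% and 77.0% of its TPM, and Serping1-203, a processed transcript of 903 nt with no coding sequence, 20.6% and 22.8%. Its target genes C1s1 and C1ra had 8.90 and 8.07 TPM in replicate 1 and 7.55 and 8.13 TPM in replicate 2. The complement protease list summed to 102 and 111 TPM with 5 of 7 genes detected.

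Serpinh1, or HSP47, a chaperone of the endoplasmic reticulum that binds procollagen, was the steadiest of the 4 highest members on the TPM scale. It had 50.1 TPM in replicate 1 against 48.3 TPM in replicate 2 (49.2 ± 1.32, SD, n = 2), with overlapping intervals of 48.4 to 51.1 and 46.3 to 49.3 TPM. Relative to the median gene it lay higher in replicate 1, at a centred log2 ratio of 0.72. Both listed transcripts carry the whole coding sequence, and Serpinh1-201 held 89.0% and 89.5% of the level. The collagen assembly list summed to 543 TPM in replicate 1 against 865 TPM in replicate 2, with 12 of 13 genes higher in replicate 2 before centring, while after centring the median of its 12 genes with a mean of at least 1 TPM was 0.15, with 8 higher in replicate 1. Most of the sum was P4hb, a prolyl hydroxylase subunit, at 354 and 577 TPM; Col1a1 had 39.3 and 41.9 TPM.

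The order of the 4 highest genes depended on the replicate. In replicate 1 Serping1, Serpinh1 and Serpinb6a lay within 53.3 to 49.0 TPM, and the interval of Serpinb6a overlapped those of both others. In replicate 2 Serpinb6a stood first, followed by Serping1, Serpinb1a and Serpinh1 with no overlap between neighbours.

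In the Serpina3 group, which in the mouse takes the place of the human antichymotrypsin gene, 3 of 10 genes were detected. Serpina3g, known from activated leukocytes, had 5.93 TPM in replicate 1 and 14.3 in replicate 2 from 413 and 824 counts, whereas Serpina3n, an acute-phase gene, had 10.1 and 5.75 TPM from 942 and 418 counts. These neighbours differed in opposite directions between the replicates, at centred log2 ratios of -0.48 and 1.39, and the intervals of each did not overlap. Serpina3f had 1.00 and 1.45 TPM with overlapping intervals. Serpina3c, Serpina3i and Serpina3a had up to 0.11 TPM, and Serpina3b, Serpina3j, Serpina3k and Serpina3m had no counts. The T cell list summed to 32.4 TPM in replicate 1 against 38.2 TPM in replicate 2, with 7 of 7 genes higher in replicate 2 before centring and 7 of 7 higher in replicate 1 after it; its part in the level of Serpina3g was not tested.

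The loop-coding sequence differed among these genes. The coding sequences of Serpina3f, Serpina3g and Serpina3n were 85.5% to 87.5% identical between pairs. The number of positions that vary among all of them is another measure and cannot be set beside those identities. By it, 39 of 72 bases varied in the stretch that begins at the hinge of the reactive centre loop. It is given below from GENCODE M21 transcripts (GRCm38, chromosome 12, plus strand) with the variable positions in capitals. The annotated coding sequence of Serpina3g is short, at 744 bases, so its identity rests on that stretch of the gene.
Serpina3f loop stretch: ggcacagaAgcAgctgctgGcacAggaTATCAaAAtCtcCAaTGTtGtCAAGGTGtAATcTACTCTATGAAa
Serpina3g loop stretch: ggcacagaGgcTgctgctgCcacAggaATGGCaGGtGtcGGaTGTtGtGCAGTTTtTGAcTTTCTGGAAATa
Serpina3n loop stretch: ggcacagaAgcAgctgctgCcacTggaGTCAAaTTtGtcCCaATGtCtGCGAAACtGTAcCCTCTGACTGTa

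Antitrypsin, the main plasma inhibitor of neutrophil elastase and a liver product, is encoded in the mouse by near copies, of which the tables hold Serpina1a to Serpina1e. Together these 5 had 2.18 TPM in replicate 1 and 8.40 in replicate 2, from 128 and 395 counts. Serpina1b led with 0.93 TPM in replicate 1 against 6.49 TPM in replicate 2, with intervals of 0.747 to 1.62 and 5.83 to 7.51 TPM. Serpina1a had 0.38 and 0.74 TPM, Serpina1c 0.16 and 0.69 TPM, Serpina1e 0.67 and 0.45 TPM and Serpina1d 0.04 and 0.03 TPM. The copies other than Serpina1b stayed under 1 TPM in both replicates, and Serpina1e and Serpina1d were not higher in replicate 2. Serpina1f, next to these copies, had 0 and 22 counts (0.37 TPM in replicate 2), and of the cluster's other genes Serpina11 had 0.13 and 0.06 TPM, Serpina9 0.04 and 0.11 TPM and Serpina16 no counts. The liver list, of which these genes are not part, summed to 8.72 TPM in replicate 1 and 2.71 in replicate 2, nearly all from Ttr; Alb was at 0.24 and 0 TPM and Fga, Fgb and Fgg had no counts. The Paneth cell list was higher in replicate 2, with 7 of 7 genes before and after centring. So were, after centring, 7 of 8 enterocyte genes and 5 of 7 goblet genes. The part of these lists in the level of Serpina1b was not tested.

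The coding sequences of the 5 copies were 96.3% to 98.5% identical, so the split of reads among them is uncertain, to a degree that differed by copy. The deposited posterior SD of the count was above 0, taken here to mark reads shared with other genes, for 7 members: these 5, Serpina3g and, in replicate 2, Serpina3i. It was 1.86 and 3.08 counts for Serpina1b, against 57.0 and 307 expected counts, and 2.54 and 4.77 for Serpina1a, against 22 and 33.3. For the lowest copy, Serpina1d, it was 0.62 and 0.64, against 2.26 and 1.20. The annotated span of Serpina1b (chr12:103728156-103830373, minus strand) also covers Serpina1d. The loop-coding stretch, from the same annotation and on the minus strand, varied more than the rest of the coding sequence: 17 of its 72 bases (23.6%) varied, in capitals below, against 69 of the other 1167 (5.91%).
Serpina1a loop stretch: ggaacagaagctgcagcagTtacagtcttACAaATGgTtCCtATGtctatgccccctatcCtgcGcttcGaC
Serpina1b loop stretch: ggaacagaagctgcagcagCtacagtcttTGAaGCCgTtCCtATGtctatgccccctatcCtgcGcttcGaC
Serpina1c loop stretch: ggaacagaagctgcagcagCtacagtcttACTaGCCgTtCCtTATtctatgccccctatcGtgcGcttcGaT
Serpina1d loop stretch: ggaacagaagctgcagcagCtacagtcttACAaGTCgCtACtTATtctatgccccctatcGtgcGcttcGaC
Serpina1e loop stretch: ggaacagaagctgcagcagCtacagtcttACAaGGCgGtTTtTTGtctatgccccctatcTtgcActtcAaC

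Ahead of the start the copies were also alike, at 92.1% to 98.0% identity between pairs over the aligned part of 250 bases. The windows of the highest and the lowest copy are shown, Serpina1b (chr12:103738190-103738439) and Serpina1d (chr12:103773634-103773883), both on the minus strand and from RefSeq GRCm38.p6. Capitals mark GTTAAT, the core of the sequence bound by the liver and gut factor HNF1, searched as these letters on both strands. It was found in the windows of all 5 copies, in 12 of 61 windows of serpin genes (19.7%) and in 6.43% of all 32851 windows. The 12 include the windows of these 5 near copies, each counted separately, so the family share does not rest on independent windows. Both sequences hold the motif, while the listed levels of Serpina1b and Serpina1d were 0.93 and 0.04 TPM in replicate 1 and 6.49 and 0.03 TPM in replicate 2.
Serpina1b promoter: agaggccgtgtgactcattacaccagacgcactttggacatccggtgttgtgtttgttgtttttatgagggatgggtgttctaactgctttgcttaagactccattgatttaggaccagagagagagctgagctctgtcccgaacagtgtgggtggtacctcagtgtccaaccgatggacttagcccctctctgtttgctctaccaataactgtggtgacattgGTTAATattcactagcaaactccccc
Serpina1d promoter: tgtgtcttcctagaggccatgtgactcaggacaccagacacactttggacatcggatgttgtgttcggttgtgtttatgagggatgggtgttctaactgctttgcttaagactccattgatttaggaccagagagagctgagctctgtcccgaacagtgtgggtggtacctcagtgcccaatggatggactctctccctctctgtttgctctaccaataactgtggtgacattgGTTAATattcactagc

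Serpins that regulate clotting and fibrinolysis were low. Serpinf2, the inhibitor of plasmin, had 1.61 TPM in replicate 1 against 3.46 TPM in replicate 2, though its counts of 144 and 167 were close. Its near full-length Serpinf2-201 had 1.35 and 1.45 TPM, or 83.7% and 41.8% of the gene. Serpine2, or protease nexin, an inhibitor of thrombin and plasminogen activators, had 3.54 and 1.81 TPM. Serpinc1, antithrombin, had 1.05 and 1.17 TPM from 28 and 41 counts. Serpina10, the inhibitor of the activated clotting factor X with protein Z, had 0.21 and 0.04 TPM from 27 and 2 counts, and Serpind1, heparin cofactor, 0.10 and 0.01 TPM. Serpina5, the protein C inhibitor, and Serpine3 had no counts, nor did Serpina12, or vaspin, an adipose tissue product that inhibits a kallikrein. The list of clotting and fibrinolysis proteases with their receptors and cofactors, 13 of its 14 genes matched, summed to 35.7 TPM in replicate 1 and 36.3 in replicate 2, and was led by the cofactor Thbd, the receptor Plaur, the cofactor F3 and the protease Plat at 10.9, 11, 4.65 and 3.41 TPM in replicate 1 and 12.4, 7.39, 6.43 and 4.55 TPM in replicate 2. Receptors and cofactors that bind or clear serpins had 8 of 9 genes detected and 197 and 355 TPM, with Lrp1 at 65.5 and 163 TPM.

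Among the members that inhibit no protease, Serpinf1, a secreted factor that restrains the growth of blood vessels, had 11 TPM in replicate 1 against 4.78 TPM in replicate 2 from 280 and 90 counts, with intervals apart. The hormone carriers Serpina6, which binds corticosteroids, and Serpina7, which binds thyroxine, had no counts. The fibroblast list summed to 119 TPM in replicate 1 and 122 in replicate 2, with 3 of 6 genes higher in each before centring and 5 of 6 higher in replicate 1 after it. Its centred median of 0.64 was not particular to it, with 0.88 for smooth muscle and 9.57 for exocrine pancreas, while others such as Paneth were negative. The part of any list in the levels of Serpinf1, Serpine2 and Serpina3n was not tested.

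The clade i genes were low and differed between the replicates. Serpini2, which is known from the pancreas, had 25 counts and 0.42 TPM in replicate 1 and 0 counts in replicate 2, where its interval ended at 0.0634 TPM. The exocrine pancreas list was far higher in replicate 1, and its part in the counts of Serpini2 was not tested. Serpini1, neuroserpin, an inhibitor of tissue plasminogen activator in neurons, had 1.61 and 0.33 TPM with intervals apart, but 68 and 50 counts. By transcript, Serpini1-203, of 779 nt, held 91.3% of the TPM in replicate 1 and was listed at 0 in replicate 2, while the near full-length Serpini1-201 had 0.14 and 0.33 TPM. The enteric neuron list summed to 15.7 TPM in replicate 1 against 23.4 TPM in replicate 2, uncentred.

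Shorter transcripts also made up much of the TPM of some detected genes, among them Serpinb6a in replicate 1 and Serpinf2 in replicate 2 as given above. For each of the 11 the major transcript is the one with the highest mean share, and its median share was 78.1%. It held 80% or more in both replicates for 5 genes, and was the leading one in both for 10, the exception being Serpinc1; by posterior mean it was so for 9, since the leading transcript of Serpinf2 then also differed. Of Serpinf1, the 605-nt Serpinf1-202 held 77.4% of TPM in replicate 1 and 71.3% in replicate 2, and near full-length coding transcripts 0.67 and 0 TPM. Of Serpine2, the 696-nt Serpine2-203 held 63.4% and 72.6% of TPM, and near full-length ones 1.26 and 0.49 TPM. In expected counts the near full-length ones of Serpine2 led, with 127 of 183 in replicate 1 and 38.3 of 64 in replicate 2. Serpine2-203 had 52.6 and 24.7 counts, and its TPM share is larger because TPM is scaled by length. Of Serpinc1, Serpinc1-204, annotated to nonsense-mediated decay, held 38.8% and 65.3%, and the full-length transcript 0.02 and 0.05 TPM. Counted from near full-length coding transcripts alone, a choice made after the values were seen, 8 genes were detected, and Serpinf1, Serpine2 and Serpinc1 were not. The share of all protein-coding genes by this rule was not computed, so the lower count cannot be called particular to serpins.

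**Figure D3:**
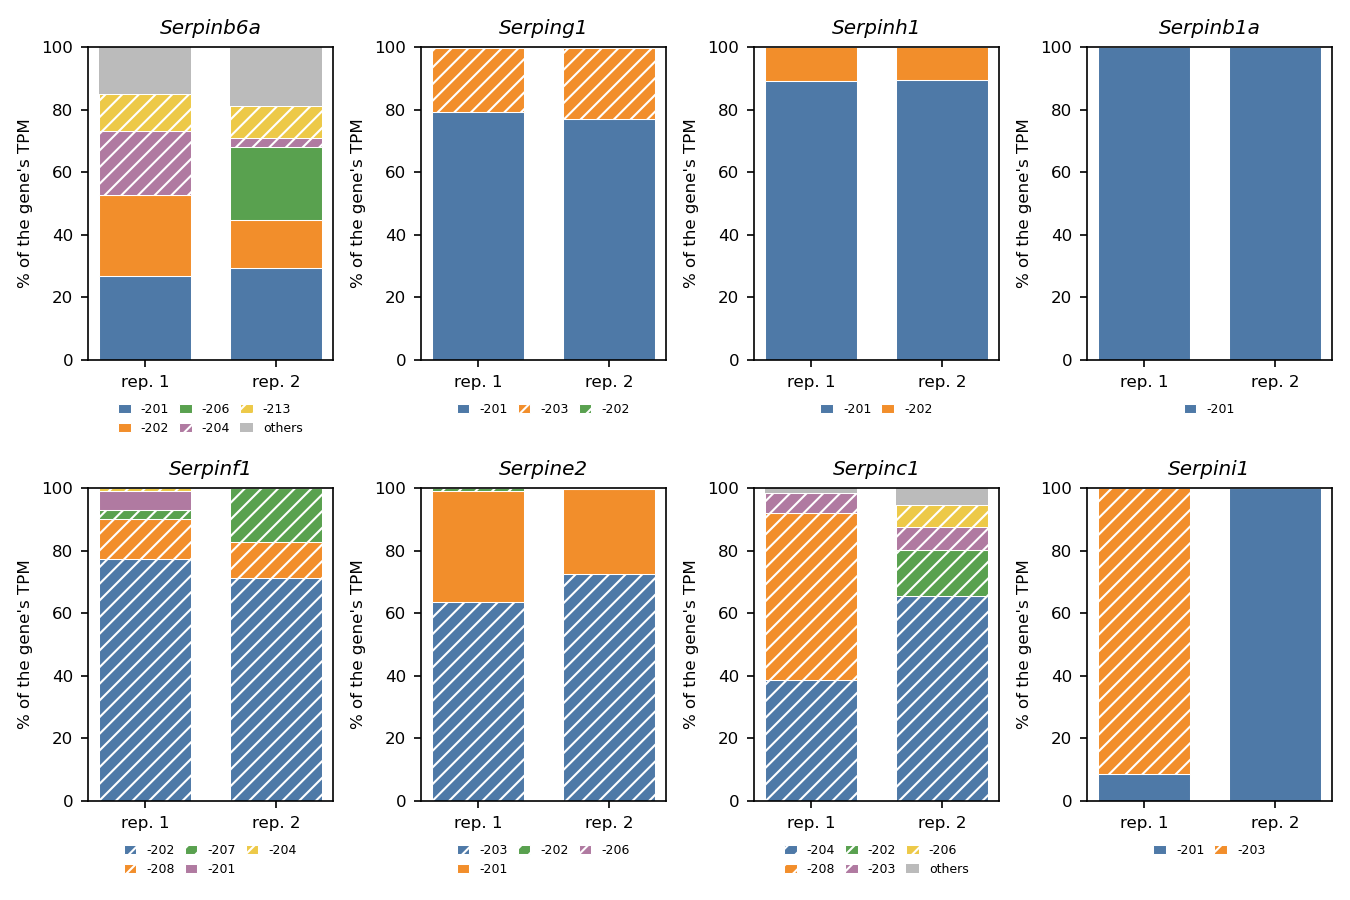
Percent of each gene's TPM by transcript for 8 serpin genes, replicate 1 left of replicate 2. Colours are the 5 leading transcripts by the suffix of their names, and grey the others. Hatching marks transcripts with less than 90% of the longest coding sequence. These make up most of the TPM of Serpinf1, Serpine2 and Serpinc1 in both replicates and of Serpini1 in replicate 1.

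**Figure D4:**
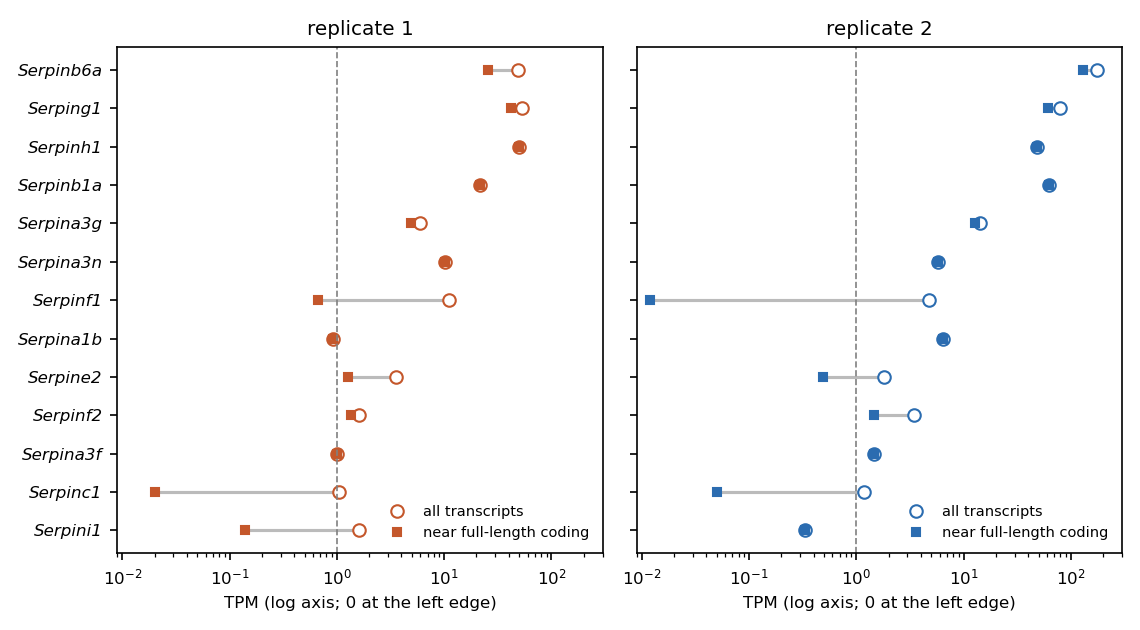
TPM on a log axis of the 11 detected serpin genes, Serpina1b and Serpini1 over all transcripts (open circles) and over near full-length coding transcripts (filled squares), replicate 1 left and replicate 2 right. The dashed line is 1 TPM, and for Serpinf1, Serpinc1 and, in replicate 2, Serpine2 the square falls below it while the circle does not, as it does for Serpini1 in replicate 1.

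Over the 12 members with a mean of at least 1 TPM, the median centred log2 ratio was 0.23, while without centring it was -0.43, so the direction of the median depends on that step. After centring 3 members were over 2-fold higher in replicate 1, Serpinf1, Serpina3n and Serpine2, against 5.76% of 11475 protein-coding genes, and 2 were over 2-fold higher in replicate 2, Serpina1b and Serpinb6a, against 4.48%. Serpina1b passed the minimum only through replicate 2, where it is high, so its place there is partly set by the filter. The other 7 lay within 2-fold. Credibility intervals of the uncentred TPM did not overlap for 9 of the 12, against 81.1% of protein-coding genes, 3 with the higher value in replicate 1 and 6 in replicate 2. The intervals cover the reads of each library and not the variation between animals.

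**Figure D5:**
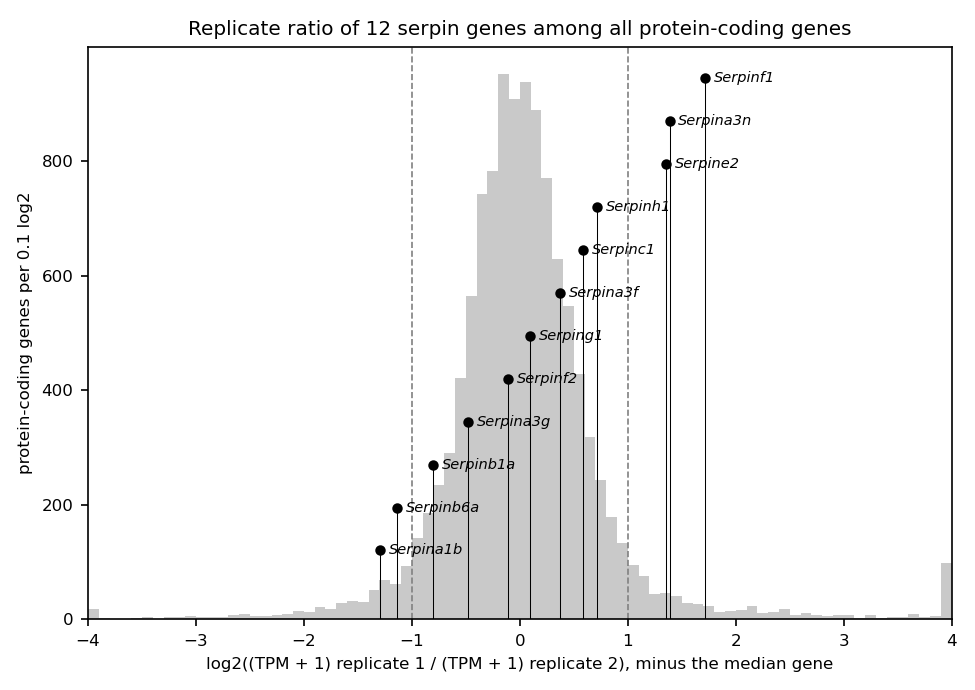
Centred log2 ratio of replicate 1 over replicate 2 for protein-coding genes with a mean of at least 1 TPM (grey histogram, ends holding values beyond the axis) and for the 12 serpin genes (points, whose height only separates the names). Dashed lines mark 2-fold; Serpinf1, Serpina3n and Serpine2 lie right of them and Serpina1b and Serpinb6a left.

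Among other protease inhibitors, the Kazal, Kunitz and WAP list stood above the summed serpins in both replicates. It summed to 4028 TPM in replicate 1 and 7919 in replicate 2, with 8 of 12 genes detected, led by Spink4, a goblet cell product that is also in the goblet list, at 3124 and 5917 TPM and by Spint2, an inhibitor of membrane serine proteases, at 644 and 1465 TPM. Cystatins, TIMPs and macroglobulins summed to 328 and 384 TPM, with 7 of 14 detected. Of the possible targets, membrane serine proteases summed to 322 and 465 TPM with 6 of 7 detected, St14 (matriptase) having 105 and 227 TPM, and cathepsins to 645 and 718 TPM with 9 of 10 detected. The pancreatic zymogen list, which shares genes with the exocrine pancreas list, summed to 228235 TPM in replicate 1 against 572 TPM in replicate 2.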

How the data were processed

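Small intestine poly(A) RNA was measured in 2 libraries of 1 group. The authors deposited expected counts (estimated fragments that need not be whole), TPM and FPKM per gene and per transcript, the percent of each gene's TPM per transcript, posterior means and SDs, and credibility bounds whose level is not stated. The deposited text names mm10 and annotation M4; the aligner is not given in the sources used here, nor is the quantifier. GENCODE M21 gave symbols, gene types and positions by stable identifier, and matched 42462 of 43346 genes (98.0%); 18 of 61 members had the same version. Members and gene lists were chosen with earlier results of these data known. Of the members, 1 is not reported here by itself. Any other member may be named, as may the 4 highest genes of each list and any gene of the neighbouring-tissue lists. Ratios used a pseudocount of 1, which understates low genes. TMM factors (edgeR 4.0.16) and size factors (DESeq2 1.42.0, R 4.3.3) on rounded expected counts served as alternatives, beside other minimums, pseudocounts, FPKM, posterior means and rescaling. The ratio step was run on simulated libraries with known changes. These did not differ in pancreas and stomach RNA as the replicates do, so centring under that difference was not tested. Python 3.11.15, numpy 2.4.6, pandas 2.3.3 and Biopython 1.88 were used. The labels call the libraries biological replicates of pooled littermates, so the SD measures the spread between these 2 libraries only.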

Additional observations from a re-analysis of the deposited data

How the results depend on the processing

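No paired analysis was possible because the labels give only 1 group. The detected count was 11, and 6 at a minimum of 5 TPM; leaving out each replicate gave 12 to 12, and other settings 8 to 14. The summed level without 1 replicate ranged from 216 to 409 TPM, and was 201 TPM without Serpinb6a (chosen after the values were seen). Rescaled over genes outside the pancreas and stomach lists, the mean of the sums was 358 TPM with an SD of 74.1. The median centred ratio of 0.23 became 0.34 with posterior means, -0.43 without centring, and -0.054 when TPM was rescaled over genes outside the pancreas and stomach lists and not centred (added after the values were seen); with edgeR's TMM factors on counts it was 0.16. The count over 2-fold higher in replicate 1 was 1 with a pseudocount of 5 and 1 without centring, and that in replicate 2 was 1 with a pseudocount of 5, 1 at a mean of 5 TPM and 4 without centring, where Serpina3g and Serpinb1a joined. The cause was not tested. Isoform shares kept their median with posterior means (78.0%), though Serpinf2 changed its leading transcript in replicate 2. A replicate ratio cannot be given with a replicate left out. Depth limits genes of a few counts: Serpinc1 rests on 28 and 41.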

Other observations

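Of 7 genes with a Serpin name that are not annotated as protein-coding, 1 had any count. The same share over all genes of that kind was not computed, so this is not a trait of the family. TATAAA, searched as these letters on both strands, was found in 17 of 61 promoter windows of serpin genes (27.9%), some genes having more than 1 window, and in 12.4% of all 32851 windows; RefSeq windows were found for 52 of the 61 members. As only 11 of the 61 members (18.0%) were at 1 TPM or more in both replicates, few such genes are to be found in any part of the family. Of the genes whose windows hold TATAAA, Serpina3f was at that level. The others were not, and included the tandem copies Serpinb3a to Serpinb3d, and Serpinb7, Serpinb12, Serpini2 and Serpina7. This is a description of these letters and was not tested.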
